A study of Mus musculus with 10 samples.

Results

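The genes of the cytosolic ribosomal proteins, the protein parts of the ribosomes that translate nuclear-encoded mRNA, were measured in mouse small cell lung cancer cells kept with or without stiripentol. A row of the deposited table was a member when its symbol was Rpl or Rps followed by a number, with or without the endings a, l, x, y or l1, or was Rplp0, Rplp1, Rplp2 or Rpsa. This rule, which uses no measured value, found 84 members among the 26335 rows, 51 of the large and 33 of the small subunit. Of these, 81 had a mean log2 CPM (the log2 of a gene's reads scaled to the total of its library) above 0 and were tested among 12306 genes, 49 of the large and 32 of the small subunit. The 3 members left out were Rpl32l with 4 to 18 reads per library, Rpl3l with 0 to 2 reads and Rps4l with 0 reads in each library. A count of 0 allows Rps4l a level of up to 0.134 CPM (3 reads) in the shallowest library.

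Of the study's mouse small cell lung cancer (mSCLC) lines, the cells were of the one grown from a primary lung tumour, not of the one from a liver metastasis, of mice in which Adeno-Cre virus had deleted tumour suppressor genes, Rb1 among them, so both groups carry these deletions, and were cultured in RPMI medium with 10% serum. The 5 stiripentol libraries came from cells given 250 µM of this antiseizure drug, which the study examined as an inhibitor of the respiratory chain, for 48 h. The 5 control libraries came from cells given the solvent DMSO for the same time. All 10 libraries are of 1 line, and no label says whether those of a group came from separate cultures, so p-values measure only the spread between these libraries, which may be technical. The label of small cell lung cancer was checked against 10 neuroendocrine markers, of which 7 were in the table. Of these, 2 had a mean above 1 CPM, Ncam1 with 92.8 to 154 CPM and Uchl1 with 0.518 to 2.85 CPM. Chgb, Dll3 and Insm1 were among those with a mean under 0.1 CPM.

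A ribosome has a large subunit, which joins amino acids, and a small subunit, which reads the mRNA. Each subunit holds many proteins in about equal numbers, and free ribosomal proteins are usually degraded, so cells make them in concert. Their mRNAs begin with a C and a stretch of pyrimidines, the 5′ terminal oligopyrimidine tract, through which the kinase mTOR and the RNA-binding protein Larp1 govern their translation and stability. In cultured tumour cells these mRNAs are among the most abundant transcripts. A few members have a paralog (Rpl22l1, Rpl7l1, Rps27l), and many have processed copies elsewhere in the genome.

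The control libraries held 22375625 to 65299372 reads each and the stiripentol libraries 55015760 to 60670901. Within each group the libraries fell into 2 clusters by their correlation over all genes. Cluster A held controls 4 and 5 and stiripentol 1 and 2, and cluster B held controls 1 to 3 and stiripentol 3 to 5. Between the groups, r was 0.881 to 0.936 for pairs of 1 cluster and 0.840 to 0.938 for pairs of different clusters. These ranges overlap, so the match of clusters between the groups is less certain than the clusters within each. Changes within a cluster and the interaction below rest on this match. The labels do not name these clusters, and what they stand for is not known. The study's own table numbers the controls otherwise than the sample titles used here, so that in its numbering replicates 1 and 2 of both groups are cluster A and replicates 3 to 5 are cluster B. Controls 1 to 3 were also normalized apart from the other 7 libraries, as shown by their lower lowest value. Because of the clusters, changes of the members the results turn on are given also within each cluster. Fewer cells of one kind and less RNA of a gene per cell cannot be told apart in such bulk libraries.

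The starts of the genes show what the members share besides their products. The RefSeq table of gene starts (build GRCm38.p6) held 59 of the 81 tested members, each with 250 bases before and 50 bases after an annotated start. An unbroken run of at least 8 C or T on the strand of the gene, from 20 bases before to 50 bases after a start, was present in 47 of these 59 members (79.7%). Such a run was present in 2427 of 8943 tested protein-coding genes (27.1%). The letters CCGGAAG or their reverse complement CTTCCGG, the core bound by ETS factors, stood in the whole window of 24 of 59 members (40.7%) and of 1915 of 8943 genes (21.4%). CTTCC inside the latter is too short to count as a run. A match is a description of the letters and not of a bound site.

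The windows of members that rose most, of 2 well-known members and of 3 paralogs are shown to let the runs be compared with the changes given below. Each is 30 bases of GRCm38.p6, 5′ to 3′ on the strand of the gene, with the longest run of C and T in capitals. Where a gene had several annotated starts, the start with the longest run was used. The runs of Rpl12, Rps24 and Rps2 begin 39, 38 and 40 bases after that start. They are thus not shown to lie at the 5′ end of the mRNA. Those of Rps24 and Rps2 reach the end of the window searched and may be cut there. In the GENCODE annotation Rps24 and Rps2 begin upstream of the windows shown, at chr14:24487125 and chr17:24718116. Their windows thus lie inside the genes and not at the outer starts.
Rpl12 (chr2:32961732-32961761, plus strand): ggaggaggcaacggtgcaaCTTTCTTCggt
Rpl26 (chr11:68901579-68901608, plus strand): gcgtgtagTTCTCTTTCCTTTTgcggccat
Rps24 (chr14:24490698-24490727, plus strand): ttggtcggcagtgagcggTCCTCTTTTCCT
Rps2 (chr17:24720083-24720112, plus strand): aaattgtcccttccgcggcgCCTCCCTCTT
Rps12 (chr10:23787180-23787209, minus strand): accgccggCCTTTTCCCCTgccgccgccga
Rps6 (chr4:86857347-86857376, minus strand): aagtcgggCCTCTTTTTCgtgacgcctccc
Rps27 (chr3:90213629-90213658, minus strand): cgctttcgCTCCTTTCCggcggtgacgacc
Rps27l (chr9:66946066-66946095, plus strand): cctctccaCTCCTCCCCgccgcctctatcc
Rpl22l1 (chr3:28805501-28805530, plus strand): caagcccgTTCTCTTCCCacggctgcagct
Rpl7l1 (chr17:46782642-46782671, minus strand): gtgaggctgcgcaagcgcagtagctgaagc
The last of these, of Rpl7l1, holds no run, and the windows of Rpl22 and Rplp0, not shown, held none either. A run was present in 13 of the 16 members called higher that were in the RefSeq table and in 34 of the 43 that were not called, so nearly equal shares of both had one. CCGGAAG was present in 4 of the 16 (25.0%) and in 20 of the 43 (46.5%), a difference that was not tested.

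Reads of ribosomal protein genes made up a larger share of the stiripentol libraries on average. They took 4.78%, 4.55%, 4.75%, 5.93% and 5.01% of the reads of controls 1 to 5. In stiripentol 1 to 5 they took 8.65%, 7.82%, 5.90%, 6.08% and 5.50%. Control 4 lay above stiripentol 3 and 5, so the groups overlapped, and both stiripentol libraries of cluster A lay far above the other 8 libraries. The mean went from 5.00% ± 0.541 to 6.79% ± 1.37 (SD, n = 5 each), a ratio of 1.36. In cluster A the mean share went from 5.47% to 8.23%, and in cluster B from 4.69% to 5.83%. The large subunit genes went from 3.14% ± 0.385 to 4.29% ± 0.863 and the small subunit genes from 1.86% ± 0.162 to 2.50% ± 0.503, ratios of 1.37 and 1.34. Counting error is small here, with 95% Wilson intervals no wider than 0.009 percentage points to either side, and reads amplified from one molecule are not independent.

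**Figure D1:**
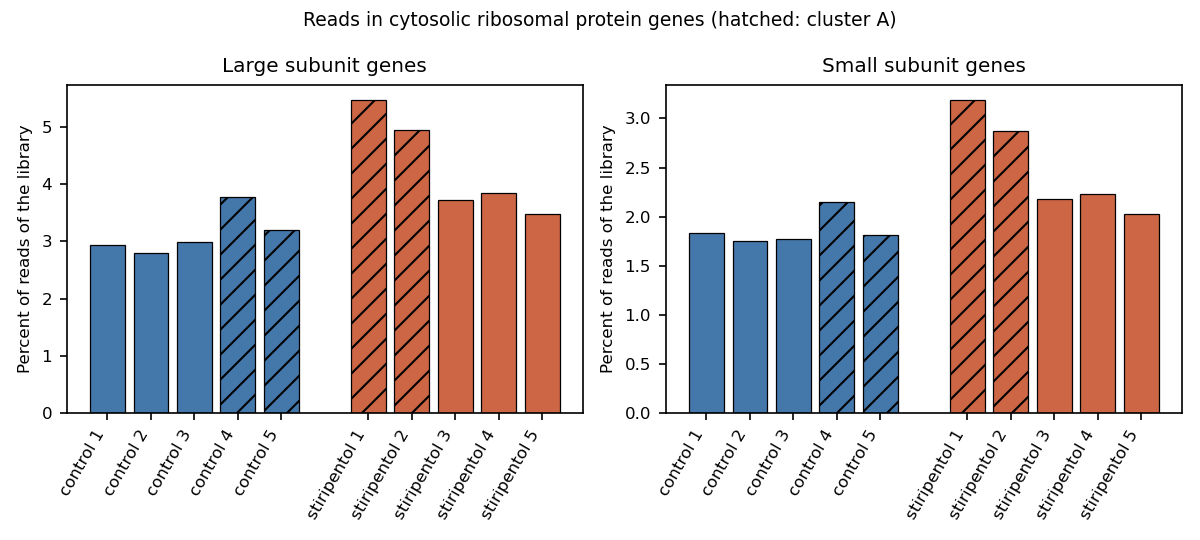
Share of the reads of each library (percent) in the large and the small subunit genes, 1 bar per library, blue for control and orange for stiripentol, with cluster A hatched. The large subunit share spans 2.80% to 3.78% in control and 3.48% to 5.46% in stiripentol, and the small subunit share 1.75% to 2.15% and 2.02% to 3.19%, with the highest bars in stiripentol 1 and 2.

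Of the tested members, 79 of 81 had a higher mean in stiripentol, all but Rpl7l1 and Rpl37a. At an adjusted p under 0.05 (limma with a mean-variance trend and no block or cluster term, Benjamini-Hochberg adjustment over 12306 genes), 14 of 49 large subunit genes and 12 of 32 small subunit genes were called higher. Over all genes tested, 13.6% were called higher, against 26 of 81 members. Among these calls, Rpl6l and Rps12l1 are annotated as processed pseudogenes. Of the 79 tested members annotated as protein coding, 24 were called higher (30.4%), with a median log2 change of 0.36. No member was called lower, where 14.1% of all genes were, and 1 large and 0 small subunit genes had a negative change at an unadjusted p under 0.05. The median log2 change was 0.38 in the large and 0.37 in the small subunit, ratios of 1.30 and 1.29, and -0.06 over all genes. The 2 subunits thus had almost the same median, and the changes ranged from -0.72 to 1.05 in the large and from 0.08 to 0.86 in the small subunit.

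In 10 large and 8 small subunit genes every stiripentol library lay above every control, which 13.0% of all genes did. In no member did every stiripentol library lie below every control, where 14.3% of all genes did. Except for Rpl29, the 18 genes that did not overlap were among those called. The other 9 called genes, among them Rpl10a, Rpl22, Rpl32, Rpl5, Rpl8, Rps19 and Rps3, had at least 1 control at or above the lowest stiripentol library.

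**Figure D2:**
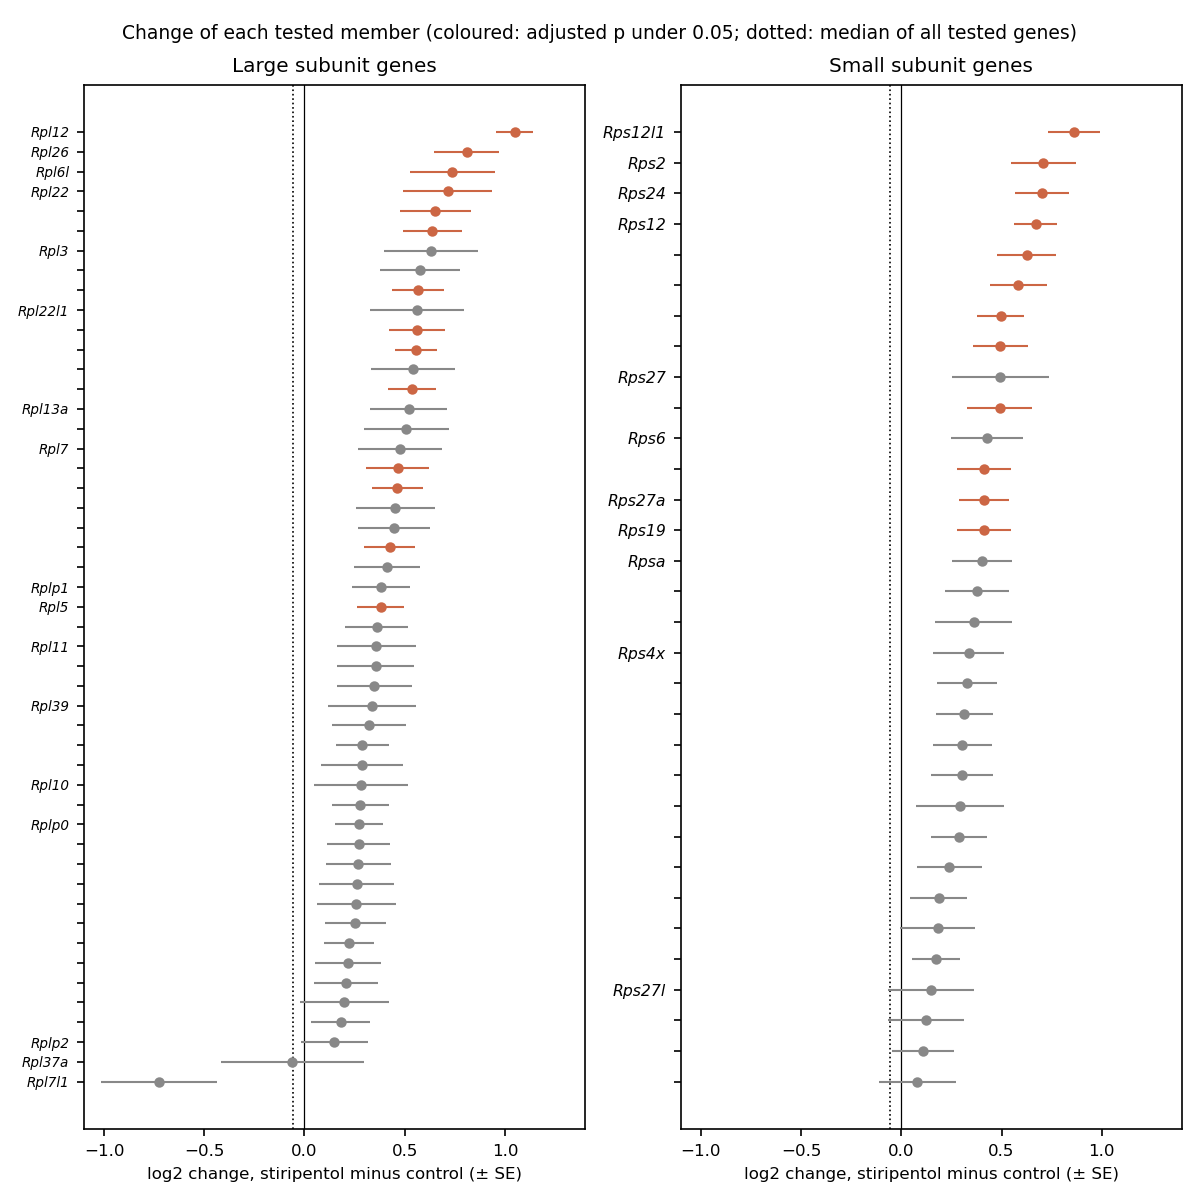
Change in log2 CPM (stiripentol minus control) of each of the 81 tested members, as points with the standard error of limma, large subunit on the left and small subunit on the right, coloured where the adjusted p was under 0.05. The dotted line marks the median of all genes (-0.06), and all points but Rpl7l1 and Rpl37a lie right of 0. Names are given for the members set by rule and for Rpl37a.

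Among the large subunit genes, Rpl12 changed most. It encodes a protein at the base of the ribosomal stalk, where translation factors bind. Its log2 CPM was 9.57, 9.54, 9.57, 9.79 and 9.52 in controls 1 to 5 and 10.77, 10.62, 10.63, 10.69 and 10.53 in stiripentol 1 to 5. The groups lay apart by several times their spread, and the change was 1.05 ± 0.09 (SE, adjusted p of limma 9.66e-05). The change was 1.04 in cluster A and 1.06 in cluster B, which differed by less than the standard error of their difference.

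Rpl26, whose protein sits at the exit of the peptide tunnel, stood at 8.93, 8.84, 9.08, 9.61 and 9.44 in control and at 10.24, 10.08, 9.89, 9.92 and 9.80 in stiripentol. The lowest stiripentol library was above the highest control, and the change was 0.81 ± 0.16 (limma adjusted p = 0.00535), 0.64 in cluster A and 0.92 in cluster B. Rpl22, which encodes an RNA-binding protein that is dispensable for translation itself, was at 7.69, 7.64, 8.00, 8.48 and 8.45 in control and at 9.25, 9.06, 8.50, 8.57 and 8.45 in stiripentol. Here the controls of cluster A reached the level of the treated libraries of cluster B. The change of Rpl22 was 0.71 ± 0.22 (limma adjusted p = 0.0355), 0.69 in cluster A and 0.73 in cluster B. It was no longer called without any 1 of controls 1, 2 and 3 and stiripentol 1 and 2, with log2 changes of 0.62, 0.61, 0.70, 0.59 and 0.64.

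Rpl6l, also among the 4 large subunit genes with the largest called rises, is annotated as a processed copy of Rpl6. It had 3.24, 3.54, 3.45, 3.52 and 2.71 log2 CPM in control and 4.56, 3.96, 3.95, 3.85 and 3.81 in stiripentol, a change of 0.74 ± 0.21 (limma adjusted p = 0.0267), 1.15 in cluster A and 0.46 in cluster B. It was not called without control 1 (log2 change 0.72) or stiripentol 1 (0.60). Reads of such a copy and of its source gene may be split by the counting, which is not described, so this value is uncertain.

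Of the small subunit genes, Rps12l1 had the largest called change, 0.86 ± 0.13 (limma adjusted p = 0.00131), and it too is annotated as a processed copy, of Rps12. Rps12 itself was at 9.13, 9.14, 9.03, 9.12 and 8.80 in control and 9.93, 9.77, 9.61, 9.69 and 9.57 in stiripentol. All treated libraries lay above all controls, with a change of 0.67 ± 0.11 (limma adjusted p = 0.00174), 0.89 in cluster A and 0.52 in cluster B. Rps24, in which loss of 1 copy causes Diamond-Blackfan anaemia in people, was at 9.47, 9.43, 9.53, 9.77 and 9.56 in control and 10.62, 10.43, 10.05, 10.12 and 10.04 in stiripentol. Its change was 0.70 ± 0.14 (limma adjusted p = 0.00439), 0.86 in cluster A and 0.59 in cluster B, and its 2 groups did not overlap.

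Rps2, whose protein lies near the mRNA entry of the small subunit, was at 11.03, 10.90, 10.72, 10.48 and 10.31 in control and 11.67, 11.52, 11.34, 11.31 and 11.15 in stiripentol. Controls 4 and 5, those of cluster A, were the lowest of all libraries, the opposite of their place in most members. The change of Rps2 was 0.71 ± 0.16 (limma adjusted p = 0.00967), with 1.20 in cluster A and 0.38 in cluster B.

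**Figure D3:**
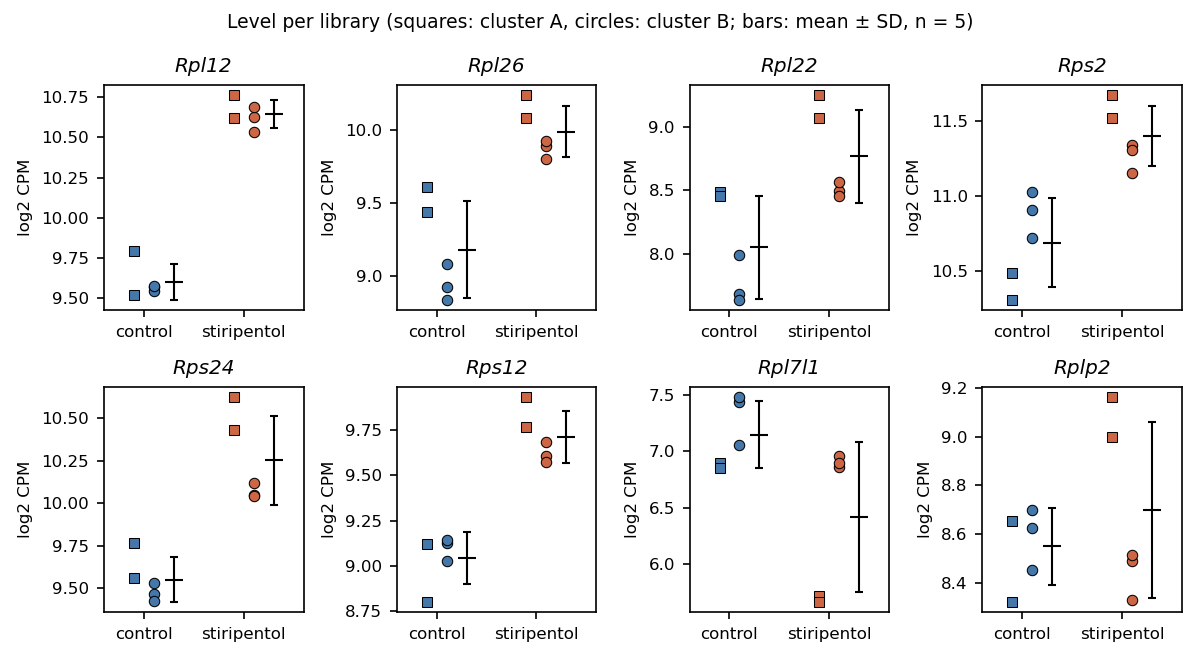
Level of 8 members in each library (log2 CPM), blue for control and orange for stiripentol, squares for cluster A and circles for cluster B, with the mean ± SD of each group (n = 5). In Rpl12, Rpl26, Rps2, Rps24 and Rps12 every treated library lies above every control, in Rpl7l1 only the treated squares lie far below the rest, and in Rplp2 only the treated squares lie above the controls.

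The stalk proteins, which recruit the elongation factors, are encoded by Rplp0, Rplp1 and Rplp2. None of the 3 was called, and their changes were 0.27 ± 0.12, 0.38 ± 0.15 and 0.15 ± 0.17 (limma adjusted p = 0.116, 0.0737 and 0.516). Rplp2 stood at 8.70, 8.62, 8.45, 8.65 and 8.32 in control and at 9.16, 9.00, 8.49, 8.52 and 8.33 in stiripentol, so only stiripentol 1 and 2 were above the controls. In cluster A its change was 0.59 and in cluster B it was -0.15.

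Rpl5 and Rpl11 encode the partners of 5S rRNA, a particle that also binds Mdm2 when ribosome assembly is disturbed. Rpl5 was called higher, from 9.24 ± 0.13 to 9.62 ± 0.21 (SD, n = 5 each), a change of 0.38 ± 0.12 (limma adjusted p = 0.0363). Rpl11 had a similar change of 0.36 with a larger standard error of 0.20, and was not called (limma adjusted p = 0.185). Rpl5 was not called without any 1 of controls 1, 2, 3 and 5 and stiripentol 1 and 2, with log2 changes of 0.30 to 0.37. In cluster A the changes of Rpl5 and Rpl11 were 0.51 and 0.62, and in cluster B 0.30 and 0.18.

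Other members with known roles beyond the ribosome were named whatever their values. Rps27a, made as a fusion with ubiquitin, was called at 0.41 ± 0.13 (limma adjusted p = 0.0347), and Rps19, the gene most often mutated in Diamond-Blackfan anaemia, at 0.41 ± 0.13 (limma adjusted p = 0.0436). Without any 1 of controls 1, 2, 3 and 5 and stiripentol 1 and 2 neither was called, with log2 changes of 0.33 to 0.43, nor was Rps19 without stiripentol 4 (0.44). Rps6, whose protein the S6 kinases phosphorylate, changed by 0.43 ± 0.18 (limma adjusted p = 0.1), Rpsa, also known as a laminin receptor, by 0.40 ± 0.15 (0.0695) and Rpl13a by 0.52 ± 0.19 (0.0645), and these 3 were not called. Rpl3, which reaches near the catalytic centre, changed by 0.63 ± 0.23 (0.0656), with controls at 9.96 to 10.73 and treated libraries at 10.50 to 11.47. For Rpl3 as for Rpl22, the controls of cluster A overlapped the treated libraries of cluster B. Rpl3 was called without control 4 (0.75) or stiripentol 5 (0.73), Rpl13a without control 4 (0.64) and Rpsa without stiripentol 5 (0.48).

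The X-linked members Rpl10, Rpl39 and Rps4x changed by 0.28 ± 0.23, 0.34 ± 0.22 and 0.34 ± 0.18 and were not called (limma adjusted p = 0.383, 0.263 and 0.173). In cluster A the changes were 0.62, 0.62 and 0.53 and in cluster B 0.06, 0.15 and 0.21, and the interaction described below was called in all 3.

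The clusters differed in the size of the change. The median change of the members was 0.57 in cluster A and 0.26 in cluster B, where the medians over all genes were -0.25 and 0.08. In cluster A, 80 of 81 members had a positive change, and in cluster B 68 of 81 had one. Tested alone, cluster A (2 against 2) gave 47 large and 31 small subunit genes higher and 1 lower, and cluster B (3 against 3) gave 26 and 20 higher and 2 lower, by limma with adjustment over all genes. Of all genes, 25.7% were called higher and 46.5% lower in cluster A, and 37.7% and 27.0% in cluster B. Rpl7l1 was the gene called lower in A, and Rpl7l1 and Rpl37a were those in B.

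The difference between the clusters was tested by the interaction of treatment and cluster. It was called in 24 large and 15 small subunit genes, 39 of 81, where 63.3% of all genes tested had such a call. Of the 81 members, 38 were called with the larger change in cluster A, where 18.1% of all genes were called in that direction. Rpl7l1, with a fall, was the 1 called in the other direction. Across the 81 members the change in A and that in B had a Pearson's r of 0.39, and across all genes one of 0.40, values that describe genes of shared libraries and are not replicates.

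**Figure D4:**
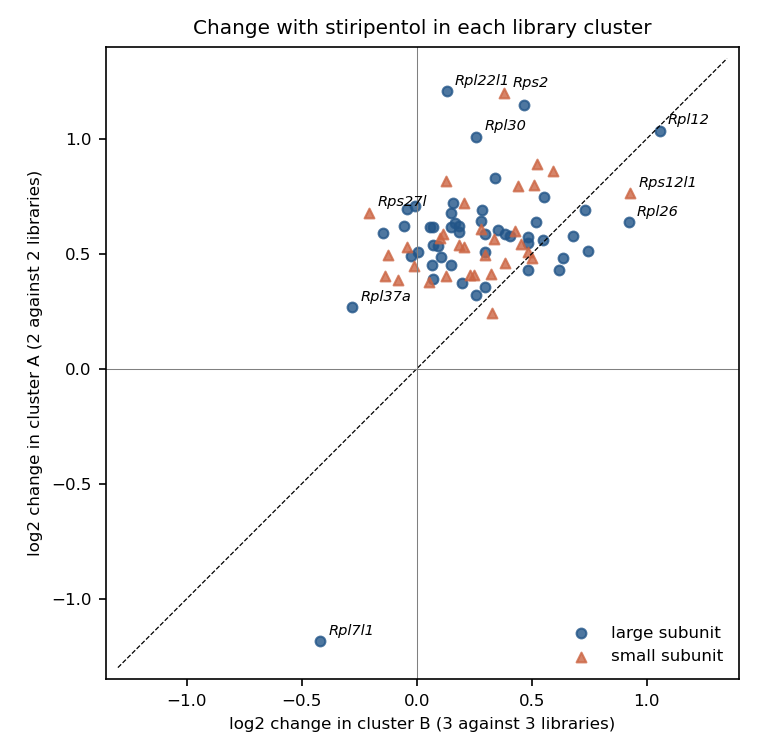
Log2 change of each tested member in cluster A (vertical axis, 2 against 2 libraries) against that in cluster B (horizontal axis, 3 against 3 libraries), circles for large and triangles for small subunit genes, with the line of equal change dashed. Most points lie above the line at 0 to 0.6 in B, Rpl12 lies on it, and Rpl7l1 lies alone at the lower left.

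The untreated cells of the clusters differed too. Controls of cluster A exceeded controls of cluster B in 60 of 81 members, with a median difference of 0.27 in log2 CPM. Stiripentol libraries of cluster A exceeded those of cluster B in 80 of 81, with a median difference of 0.53. Between stiripentol libraries of cluster B and controls of cluster A the median difference was 0.03, and 44 of 81 members were higher in the former. The step between the untreated clusters was thus about as large as the change within cluster B.

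The members moved largely together over the 10 libraries, since each member's log2 CPM had a Pearson's r with the mean of the other members of 0.92 at the median. This r was at least 0.9 in 48 members. Rpl7l1 had an r of -0.94, the opposite course, and Rps27l had one of -0.08. Rplp1 (0.40), Rpl37a (0.65), Rps2 (0.68), Rpl29 (0.73) and Rpl12 (0.76) followed as the next lowest. These values describe 10 libraries that share clusters and scaling. They are given for the members alone, so they do not show whether other genes moved likewise.

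Rpl7l1 encodes a nucleolar relative of Rpl7 that takes part in assembly of the large subunit. It stood at 7.44, 7.48, 7.05, 6.90 and 6.86 in control and at 5.72, 5.67, 6.96, 6.86 and 6.90 in stiripentol. Stiripentol 1 and 2 lay far below all other libraries, while the treated libraries of cluster B lay at the level of the controls of cluster A. The change was -0.72 ± 0.29 (limma adjusted p = 0.0846), -1.18 in A and -0.42 in B, with an interaction of -0.76 ± 0.16 (limma adjusted p = 0.00168).

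Rpl22l1, which can take the place of Rpl22 and is known to rise when Rpl22 is lost, stood at 6.51, 6.43, 6.62, 6.59 and 6.33 in control and 7.82, 7.51, 6.72, 6.63 and 6.61 in stiripentol. Only stiripentol 1 and 2 were clearly above the controls. Its change was 0.56 ± 0.24 (limma adjusted p = 0.097), 1.21 in A and 0.13 in B, with an interaction of 1.08 ± 0.16 (limma adjusted p = 0.000121). Rps27l, the paralog of Rps27, stood at 5.90, 5.90, 5.54, 4.95 and 4.84 in control and at 5.63, 5.52, 5.65, 5.49 and 5.59 in stiripentol. The clusters went in opposite directions, with changes of 0.68 in A and -0.21 in B, and both ended near the same level.

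Each copy was also set against its counterpart within each library, as the difference of their log2 CPM, in 5 pairs. The difference of Rpl7l1 and Rpl7 went from -3.23 ± 0.59 to -4.43 ± 1.06 (SD, n = 5 each), by -1.20 in all, -1.76 in A and -0.83 in B (two-sided exact permutation test p = 0.0794, adjusted over 5 pairs 0.198). That of Rpl6l and Rpl6 changed by 0.45 (exact p = 0.0318, adjusted 0.159). The others changed by -0.15 for Rpl22l1 and Rpl22, -0.35 for Rps27l and Rps27 and 0.19 for Rps12l1 and Rps12 (exact p = 0.484, 0.452 and 0.159, adjusted 0.484, 0.484 and 0.265). With 252 arrangements the smallest p is 0.00794, and none of the 5 pairs passed. The permutations treat all libraries as exchangeable and take no account of the clusters. In the pairs of Rpl22l1, Rps27l and Rps12l1 the clusters differed in sign, with 0.52, 0.20 and -0.12 in A and -0.60, -0.71 and 0.40 in B.

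**Figure D5:**
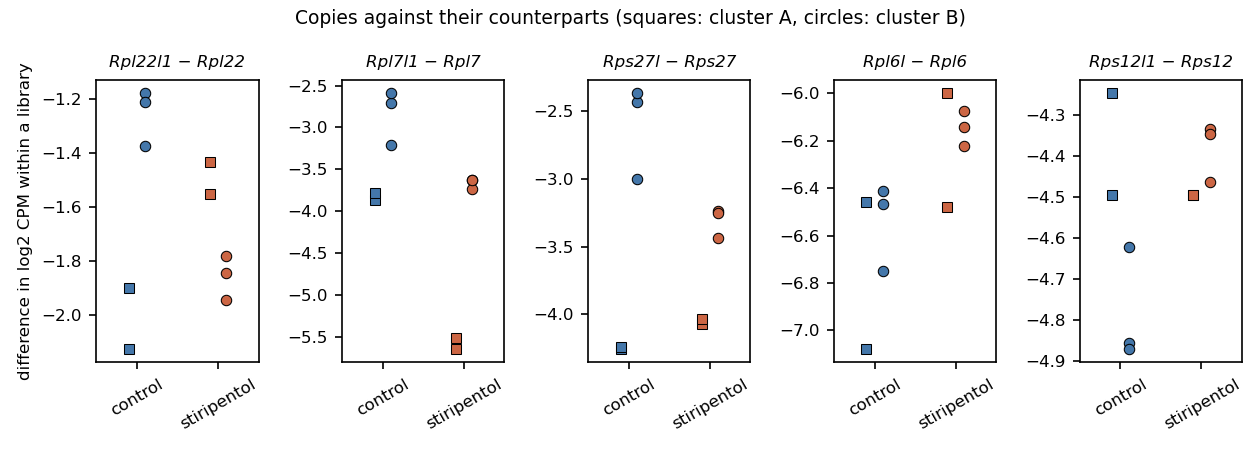
Difference in log2 CPM within a library between a copy and its counterpart for 5 pairs, blue for control and orange for stiripentol, squares for cluster A and circles for cluster B. The difference of Rpl7l1 and Rpl7 is lower in stiripentol in both clusters, while that of Rpl22l1 and Rpl22 is higher in cluster A and lower in cluster B.

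Ribosomal proteins that the naming rule leaves out were measured too. Of 6 such genes 5 were in the table, all with a positive change, a median of 0.30 and 1 call. That call was Rack1, a scaffold on the small subunit, from 10.71 ± 0.19 to 11.13 ± 0.12 (limma adjusted p = 0.0255), whereas Fau, made as a fusion with a ubiquitin-like protein, changed by 0.30 and was not called. Rack1 was not called without any 1 of controls 1 to 3 and stiripentol 1 and 2 (log2 changes of 0.38 to 0.41). Rows named as pseudogenes of members had a median change of 0.50, 20 of 67 tested were called higher and 0 lower, and their share of all reads went from 0.247% ± 0.012 to 0.386% ± 0.070. With the reads of these rows added to their source genes the medians of the subunits stayed at 0.38 and 0.37.

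Other mRNAs with a 5′ terminal oligopyrimidine tract, mostly of elongation and initiation factors, had a median change close to that of the members. Of 17 genes, 16 had a positive change, the median was 0.38, and 7 were called higher and 0 lower. Eef1g, a part of the elongation factor that recharges Eef1a1, went from 9.93 ± 0.16 to 10.71 ± 0.18 (limma adjusted p = 0.00162). Snhg1, a host transcript of small nucleolar RNAs, went from 5.76 ± 0.24 to 7.60 ± 0.72 (limma adjusted p = 0.00206), by 2.81 in A and 1.18 in B.

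Regulators of such mRNAs gave 1 call in each direction among 13 genes, with a median of -0.15. Eif4ebp1, the inhibitor of cap binding that mTOR inactivates, rose from 7.60 ± 0.26 to 8.67 ± 0.15 (limma adjusted p = 0.000573), by 1.46 in cluster A and 0.81 in cluster B. Tia1, an RNA-binding protein of stress granules, fell from 5.76 ± 0.41 to 4.83 ± 0.33 (limma adjusted p = 0.0123). Larp1 and Mtor changed by -0.15 and -0.39 and were not called (limma adjusted p = 0.72 and 0.11).

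Genes of rRNA transcription and ribosome assembly were called in both directions. Of 73 tested, 8 were called higher (11.0%) and 4 lower (5.48%), where 13.6% and 14.1% of all genes were. Both shares were thus below those of all genes. The median change was 0.09, which was 0.35 in cluster A and -0.09 in cluster B. Nop10, of the snoRNPs that place pseudouridine, rose by 0.71 and Mphosph10, of the small subunit processome, by 0.61 (limma adjusted p = 0.0346 and 0.037). Polr1b, the second-largest subunit of RNA polymerase I, fell by 1.18 and Bop1, a factor for the large subunit, by 0.76 (limma adjusted p = 0.0434 and 0.0357). These 4 calls each rested on several libraries, since Nop10 was lost without any of 6 libraries (0.56 to 0.73 on the log2 scale), Mphosph10 without any of 8 (0.48 to 0.63), Polr1b without any of 6 (-1.27 to -0.96) and Bop1 without any of 5 (-0.81 to -0.64). Of 9 chaperones and loading factors of ribosomal proteins, 3 were called higher and 0 lower, with 1 at an unadjusted p under 0.05 in the negative direction. Pdcd2l, whose product binds the Rps2 protein, rose by 0.93 and Bccip, a chaperone of Rpl23, by 0.74 (limma adjusted p = 0.0318 and 0.0146). Pdcd2l was not called without any 1 of controls 1 to 3 and stiripentol 1 and 2 (0.77 to 0.90).

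The members were set beside classes of genes of similar level or size, chosen after the values were seen. Among 565 other genes with a mean log2 CPM above 8, the median change was 0.08, and 21.6% were called higher and 17.0% lower. Of 4600 other genes with a median transcript under 1000 nucleotides, the median was 0.05 and 16.0% were called higher. The 78 mitochondrial ribosomal protein genes had a median of 0.28, with 27 called higher and 4 lower. In the share called higher (32.1%) the members were thus near the mitochondrial ribosomal protein genes (34.6%) and above both other classes, and no test was made between classes.

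Markers of other cell states moved with the treatment as well. The summed level of 7 fibroblast markers, of which Lum lay under 0.1 CPM, was 404 to 696 CPM in control and 152 to 185 CPM in stiripentol. Of the 6 tested, 4 were called lower, and Col1a1 and Dcn were not called (limma adjusted p = 0.529 and 0.557). Col1a1 rose by 0.86 in cluster B and Dcn by 1.76 in cluster A, and each fell in the other cluster. In cluster B, Col3a1 went from 290 to 328 CPM in control to 1.37 to 1.89 CPM in stiripentol. The 3 tuft cell markers summed to 1.86 to 6.94 CPM in control and 25.1 to 59.7 CPM in stiripentol. Of the tuft cell markers, Avil went from 0.487 to 4.76 CPM in control to 25.1 to 59.3 CPM in stiripentol. Pou2f3, which defines tuft cells, instead went from 0.845 to 4.51 down to 0.052 to 0.267 CPM, and Trpm5 was at most 0.33 CPM. The sum of 4 leukocyte markers in the table, of a list of 6, was 6.41 to 18.6 and 58.9 to 103 CPM. Cd68 made up most of it, with 4.12 to 17.9 and 55.1 to 103 CPM, while Ptprc and Cd79a, which define leukocytes and B cells, were at most 0.052 CPM in any library and Lyz2 at most 3.74 CPM. The sum of 4 epithelial markers was 2278 to 2598 and 1544 to 2145 CPM in control and stiripentol. Krt8 and Krt18 made up nearly all of it, with Cdh1 at most 1.09 CPM and Epcam at most 0.045 CPM in any library. The 3 endothelial markers summed to at most 1.07 CPM in any library. The 8 proliferation genes summed to 815 to 2217 CPM in control and 1835 to 2282 CPM in stiripentol, with means of 885 in the controls and 1985 in the treated libraries of cluster A, and of 1948 and 2202 in those of cluster B. The 7 neuroendocrine markers in the table summed to 93.5 to 120 CPM in control and 127 to 157 CPM in stiripentol. Ncam1 made up most of that sum and was called higher, with a change of 0.46 (limma adjusted p = 0.00911). Reads of the mitochondrial chromosome went from 1.27% ± 0.351 to 0.758% ± 0.104 of the library. Their part in the changes of the members was not tested.

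The counts of called members rested on how the clusters were treated. With a term for the cluster in the fit, 35 large and 25 small subunit genes were called higher and 1 large subunit gene lower, where 23.6% of all genes were called higher and 27.1% lower. With 1 mean per group and cluster, 2 against 2, 0 genes were called by limma in either subunit (1 large and 0 small subunit genes higher at an unadjusted p under 0.05), a design with 1 value per cluster and group, in which 0% of all genes were called. Controls 4 and 5 were put on the log scale together with the treated libraries. With these controls alone, 5 large and 4 small subunit genes were called higher. Of all genes, 10.1% were called higher and 9.87% lower, so the members' share was near that of all genes. This fit sets controls of cluster A against treated libraries of both clusters. The medians were then 0.26 and 0.24.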

How the data were processed

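RNA was sequenced from 1 mouse line in 5 control and 5 stiripentol libraries. The authors deposited 1 table with the log2 CPM of each gene and library, normalized with GENAVi per the methods, and per the labels the genome build was mm10. The aligner, counter and annotation are not given in the sources used here. The methods name 3′ mRNA libraries and the labels total RNA libraries, so levels of different genes were not compared. Columns of the authors' own comparisons (group means, ratios, p-values) were not used.

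Groups were taken from the sample titles. Log2 CPM was compared with limma 3.58.1 in R 4.3.3 (trend, no covariate) over the 12306 genes whose mean was above 0, and called at an adjusted p under 0.05 (Benjamini-Hochberg). The prior added before the logarithm, 2 reads on average, was removed to recover whole reads (100% of values within 0.05 of a whole number), which served for shares, other scalings and voom. The script was tested on simulated data. For copies and counterparts, exact permutation tests (two-sided) were run in Python 3.11.15 and scipy 1.17.1. The 4 called members of each subunit with the largest rises, any falls, members with a set role, and up to 2 called genes in each direction of the other lists were named. Rpl37a, Rpl29 and the members named only for an extreme value of likeness or of overlap were chosen after their values were seen. The members and lists were chosen with earlier results of these data known. Alternatives were other filters, pseudocounts, scalings, voom, blocks, clusters and leaving out each library. The blocked fit in the study's table numbering, the cluster means, controls 4 and 5 alone and all fits of the copies were added after the data were seen. The values of some single genes are not reported here.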

Additional observations from a re-analysis of the deposited data

Results flagged for a closer look

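In 72 groups of 5 values examined, 6 held 1 library well apart from the rest, and about 3.6 would do so by chance. Control 4 was the highest control in Rpl12 (9.79), Rpl5 (9.47), Rps19 (8.58) and in the share of reads in small subunit genes (2.15%). Stiripentol 1 stood apart in Rpl6l (4.56), and control 5 in its total of 22375625 reads.

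The change with stiripentol differed between the 2 clusters of libraries in 39 of 81 members, by the interaction term of limma at an adjusted p under 0.05, and 63.3% of all genes had such a difference. Of the 27 members named, 14 had such a difference (change in cluster A minus that in cluster B, log2 scale). It was 1.08 in Rpl22l1, 0.89 in Rps27l, 0.82 in Rps2, 0.74 in Rplp2 and 0.69 in Rpsa. Smaller differences were 0.56 in Rplp1, 0.56 in Rpl10, 0.51 in Rps27a, 0.47 in Rpl39, 0.44 in Rplp0, 0.44 in Rpl11, 0.37 in Rps12 and 0.32 in Rps4x. Rpl7l1 had -0.76, the only one below 0.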

How the results depend on the processing

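The median log2 change of both subunits stayed positive under all 27 alternatives, and ranged over 0.26 to 0.59 in the large subunit and 0.24 to 0.53 in the small subunit. Without each library in turn it was 0.30 to 0.44 and 0.27 to 0.46. The counts of members called higher were less steady. They were 9 large and 7 small with median scaling, 35 and 25 with a cluster term, 26 and 20 in cluster B alone, 47 and 31 in cluster A alone, 0 and 0 with cluster means, and 5 and 4 with controls 4 and 5 alone. Of all genes, 14.7%, 23.6%, 37.7%, 25.7%, 0% and 10.1% were called higher in these fits. A minimum absolute log2 change of 0.5 left 6 small subunit genes called higher, where 10.6% of all genes were. Members called lower, all of the large subunit, numbered 1 with a cluster term, 2 in cluster B alone and 1 in cluster A alone. Without 1 library the counts were 7 to 20 large and 7 to 13 small, where 9.90% to 13.9% of all genes were called higher. The large subunit count fell by more than 1.5 times without control 1 (7), control 2 (8), stiripentol 1 (9) or stiripentol 2 (8). The small subunit count did so without control 1, 2 or 3 or stiripentol 2 (7 each). The share of all genes called higher fell too, from 13.6% to 10.0% without control 1, 2 or 3. It was 11.2% without stiripentol 1 and 9.90% without stiripentol 2.

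With the replicate numbers of the labels as a block, 7 large and 4 small subunit genes were called higher (8.29% of all genes). Same-numbered libraries did not deviate together (mean r of -0.15), so these numbers share only a name. The study's own table numbers the controls differently from the sample titles. With its numbers as a block, the counts were 27 and 20 higher and 1 large subunit gene lower (16.7% and 17.9% of all genes), with r of 0.08 to 0.22 per pair.

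The count of members with an interaction was 27 with quantile normalization, 42 with other totals and 37 with voom. Of the named genes' 1026 values under alternatives, 2 changed sign, both in cluster B alone, Rps27l (-0.21) and Rplp2 (-0.15). In cluster A alone the differences of Rpl22l1 and Rpl22 (0.52), Rps27l and Rps27 (0.20) and Rps12l1 and Rps12 (-0.12) changed sign. The cause of these shifts was not tested. Median scaling moved the median of all genes from -0.06 to 0.03, and quantile normalization to 0.05. Within a group, libraries of 1 cluster correlate more (r of 0.983 to 0.998) than those of different clusters (0.920 to 0.939). Between the groups these ranges overlap. The fit without a cluster term treats all 10 libraries as independent.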
